A study of Mus musculus with 8 samples.

Results

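The genes described here are 36 genes of myeloid cells, mast cells, basophils, megakaryocytes and red-cell precursors, which are lineages other than the T lineage. They were taken by symbol from a list that was drawn up with earlier results of these data known, with no threshold on a value, and all 36 were found among the 24506 gene symbols of the count table. The question was how much RNA of these other lineages remained in sorted T-cell progenitors, and whether it differed by sort gate and by guide RNA. Of the 36 genes, 31 had enough counts to be tested, and Elane, Siglech, Ms4a2, Fcer1a and Pf4 did not.

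Bulk RNA sequencing covered 8 libraries of T-cell progenitors, grown in culture from mouse bone marrow, in 4 groups of 2. Late sgStat5 and late control cells expressed the Bcl11b-mCherry reporter, and early sgStat5 and early control cells did not; all sorted cells displayed CD25 and the marker of infection and lacked lineage markers. In the series text the late cells are mCherry+, yet their reporter is also called negative. The sgStat5 cells received 3 guides against Stat5a and 3 against Stat5b by retrovirus, the control cells received control guides whose target the labels do not name, and no age or sex of the mice is given. All 4 groups carried Cas9, a Bcl2 transgene whose promoter is not given, and the Bcl11b-mCherry/mCherry reporter, and all grew for 6 days with IL-7 and Flt3 ligand, each at 10 ng/ml, on OP9-DLL1 (stroma that displays a Notch ligand). Bcl2 protects cells from death, so survival in all 4 groups may differ from that of unmodified progenitors.

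Early T-cell progenitors that reach the thymus, or that are cultured with a Notch ligand, can still produce myeloid, dendritic and mast cells for a time. This potential is lost as Bcl11b is switched on and the cells commit to the T lineage, and transcription factors of the earlier program, such as PU.1 (gene Spi1), are turned down. STAT5A and STAT5B carry signals from IL-7, IL-2, IL-3, erythropoietin and related cytokines, and so act in T-cell precursors as well as in mast, myeloid and red-cell precursors.

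Promoter sequences are shown for 4 members whose RNA carries the results below, namely Mpo and Gfi1b, which were lower in the late gate, Cpa3, which had the highest level, and Mpeg1, which differed by guide. Each is the 250 bases before the RefSeq start of the gene in GRCm38.p6 (the build also called mm10), 5′ to 3′ on the gene's strand. In Mpo the capitals mark the core letters bound by PU.1, which are GAGGAA. In Gfi1b they mark the spaced letters of a STAT site, which are TTCNNNGAA. In Cpa3 and Mpeg1 they mark the letters of a GATA factor site, which are AGATAA. All were searched on both strands.
Mpo, chr11:87793534-87793783, plus strand: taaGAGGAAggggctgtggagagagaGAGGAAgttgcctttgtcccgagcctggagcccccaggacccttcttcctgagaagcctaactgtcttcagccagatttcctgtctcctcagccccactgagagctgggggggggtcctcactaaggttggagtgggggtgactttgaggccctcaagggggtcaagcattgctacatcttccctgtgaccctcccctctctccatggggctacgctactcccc
Gfi1b, chr2:28621983-28622232, minus strand: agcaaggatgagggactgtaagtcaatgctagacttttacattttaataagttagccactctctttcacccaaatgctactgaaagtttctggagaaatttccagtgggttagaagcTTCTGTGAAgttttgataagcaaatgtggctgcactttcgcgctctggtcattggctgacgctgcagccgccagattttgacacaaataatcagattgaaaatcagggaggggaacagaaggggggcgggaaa
Cpa3, chr3:20242182-20242431, minus strand: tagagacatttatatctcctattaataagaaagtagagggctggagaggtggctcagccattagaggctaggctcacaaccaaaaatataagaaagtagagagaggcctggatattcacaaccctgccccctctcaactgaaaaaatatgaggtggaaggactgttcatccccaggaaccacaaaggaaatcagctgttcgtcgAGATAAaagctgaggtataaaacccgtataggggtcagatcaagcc
Mpeg1, chr19:12460520-12460769, plus strand: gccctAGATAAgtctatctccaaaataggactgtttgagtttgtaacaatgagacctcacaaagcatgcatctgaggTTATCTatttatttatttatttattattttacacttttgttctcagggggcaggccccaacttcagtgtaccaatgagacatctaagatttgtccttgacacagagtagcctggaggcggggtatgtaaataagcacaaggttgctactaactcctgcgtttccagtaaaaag

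The Mpo window held GAGGAA with first bases at -247 and -224 from the start, and the Gfi1b window held 1 STAT match at -133. A GATA match stood at -46 in Cpa3 and at -245 and -173 in Mpeg1, while the Mpeg1 window held no TTCNNNGAA. RefSeq promoters were matched for 33 of the 36 members. Of those 33 windows, 5 held the STAT letters (Ctsg, Siglech, Ncf1, March1 and Gfi1b), 6 the GATA letters and 14 the PU.1 letters. The shares among 32851 promoters were 7.02% for the STAT letters, 9.99% for the GATA letters and 23.3% for the PU.1 letters. The letters TTGCNNAA, a C/EBP site, were in 8 member windows and in 9.56% of all. The RefSeq start lay within 50 bases of the start of the counted transcript for 28 of the 33, the 4 printed ones included; for March1 it lay 768261 bases away, so its window says nothing of the transcript counted here. A match is a run of letters and not a site shown to be bound.

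Total counts ran from 22146490 to 31209177 per library. Stat5a RNA was at 105 to 116 CPM in the 4 sgStat5 libraries and at 238 to 258 CPM in the 4 control libraries, where CPM are counts scaled to library size after adjustment between libraries. Stat5b RNA was at 133 to 154 CPM and at 249 to 280 CPM in the same order. For each guide and replicate number the late library held more Bcl11b RNA than the early one. The summed CPM of 16 T-lineage genes was 8632 and 6687 in late sgStat5, 9805 and 6969.8 in late control, 5137 and 4747 in early sgStat5 and 6612 and 5530.5 in early control libraries. A large part of this sum was Il2ra, which encodes CD25. Il2ra had 1374 and 1886 CPM in late sgStat5 and 2948 and 3075 CPM in late control libraries. It had 1980 and 2155 CPM in early sgStat5 and 3152 and 2887 CPM in early control libraries. The sum therefore does not give the direction of the other T-lineage genes between guides. The late-gate calls of those genes stand with the guide comparison below. The labels do not say whether the 2 replicates of a group are separate cultures or animals, so a p-value here speaks of the spread among these 8 libraries and no more. The replicate numbers pair the libraries across groups, so values with the replicate number as a block stand beside the others where they change a call. Xist RNA was at 0 to 0.359 CPM in the replicate 1 libraries and at 1388 to 2345 CPM in the replicate 2 libraries. The 2 numbers therefore differed in the sex makeup of their cells, which the block takes out together with any other difference between them. On simulated data, with 1 set per comparison, false calls made up 4.61 to 14.6% of the calls with the block, against a threshold of 0.05. Without the block they made up at most 1.3%. The lowest blocked share was that of late against early sgStat5 cells, but 1 set cannot rank the comparisons. The share also depends on how many genes truly differ, which was fixed in the simulation. Calls made only with the block are therefore less secure in every comparison.

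Per length, Cpa3 was the most abundant member, with a mean of 213 FPKM (deposited reads scaled to transcript length and library size) over the 8 libraries. Fcer1g had a mean of 62.1 FPKM, Tyrobp 43.7 FPKM, Clec12a 17.7 FPKM, Gfi1 14.8 FPKM, Ncf4 14.3 FPKM and Ctsg 10.5 FPKM, and every other member had a mean below 10 FPKM. On the CPM scale 17 members reached 10 CPM in at least 1 library and 10 stayed under 1 CPM in all 8. These 10 were Elane, Lyz1, Siglech, Csf3r, Epor, Cybb, Klf1, Ms4a2, Fcer1a and Pf4, among them neutrophil elastase, the receptors for G-CSF and erythropoietin and platelet factor 4. Elane had at most 9 counts in any library, Ms4a2 at most 9, Pf4 at most 5, Siglech at most 3 and Fcer1a at most 1. A count of 3 corresponds to 0.0964 to 0.135 CPM, depending on the library, so an absence below that level cannot be told from low expression. The RNA was thus uneven within a lineage: of mast-cell and basophil genes Cpa3 and Mcpt8 were detected in every library, while both specific chains of the IgE receptor, Fcer1a and Ms4a2, were at or near 0.

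**Figure D1:**
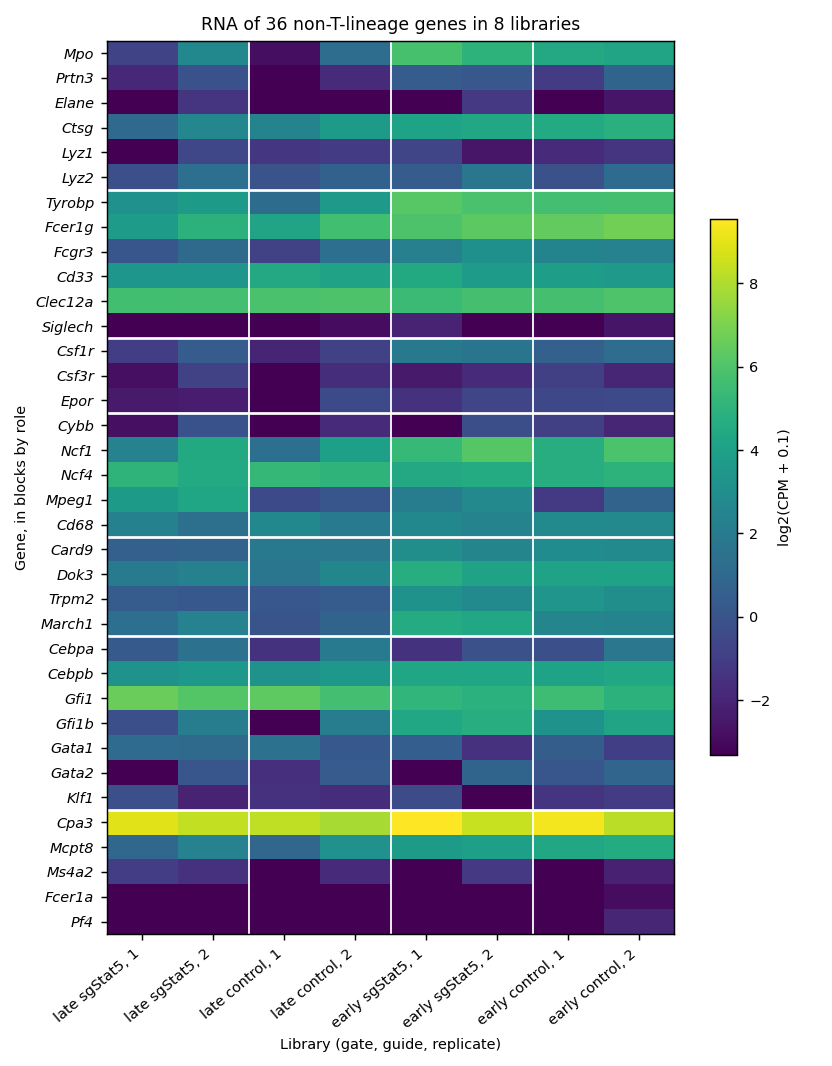
Level of each of the 36 genes (rows, in blocks by role) in each of the 8 libraries (columns), as log2(CPM + 0.1). Cpa3 stands out in every library, Mpo, Tyrobp, Ncf1 and Gfi1b are brighter in the 4 early columns, Mpeg1 is brightest in the late sgStat5 columns, and Fcer1a and Pf4 are dark throughout.

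The first comparison asked how much of this RNA remained on the late side of the Bcl11b reporter. In sgStat5 cells 15 of the 31 tested members were lower in the late gate and 2 were higher (Gfi1 and Mpeg1) in the edgeR test with the replicate block, against 11.5% lower and 11.3% higher among all 13775 tested genes. In control cells 14 members were lower and 1 was higher (Gfi1) in the same test, against 4.3% and 6.64% of all genes. Without the block, edgeR called 4 members lower in sgStat5 cells (Trpm2, March1, Dok3 and Card9; 0.312% of all genes were lower, and 0.973% changed in either direction). Higher calls made up 0.661% of all genes there. In control cells it called 0 of 31, where 0.0145% of all genes were called, with 14 members at an unadjusted p under 0.05. DESeq2 called 6 members lower in control cells, and limma on FPKM called 0. The median log2 difference of the 31 tested members was -0.89 in sgStat5 cells and -1.03 in control cells without the block, beside 0.03 over all genes in each arm. Because RNA was taken from pools of cells, fewer cells of another type and less RNA per cell cannot be told apart.

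Overlap of the libraries gives the same comparison without a model. In sgStat5 cells both late libraries lay below both early libraries for 18 of the 31 members and above them for 4, against 28.1% of all genes in each direction. In control cells 17 members lay below and 4 above, against 24.2% and 24.6% of all genes. Without Cpa3 the summed CPM of the other 35 members was 265 and 300.4 in late sgStat5, 259 and 311 in late control, 513 and 520.0 in early sgStat5 and 459 and 538 in early control libraries. Each late sum was thus below every early sum, while the sums of sgStat5 and control libraries overlapped within each gate. Cpa3 alone made up 35.09 to 65.07% of the summed CPM of all 36 members. With Cpa3 included, the late sums were 759 and 625 CPM in sgStat5 and 575 and 544 CPM in control libraries, and did not overlap. The early sums with Cpa3 were 1255 and 873 CPM in sgStat5 and 1098 and 829 CPM in control libraries, and overlapped.

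Among the granule proteins of neutrophils and monocytes, Mpo and Ctsg fell in the late gate in both guide arms with the block. Mpo (myeloperoxidase, chromosome 11, 87793784 to 87804412) stood at 0.530 and 6.20 CPM in late sgStat5 libraries, against 55.8 and 32.1 CPM in early sgStat5 libraries. Late control libraries held 0.0383 and 2.32 CPM of it, against 21.7 and 17.8 CPM in early control libraries. All 4 late values lay below all 4 early ones, and the replicate 2 library was the higher of the 2 late libraries in each arm. The log2 difference of Mpo with the block was -3.92 (SE 0.90, adjusted p = 0.015) in sgStat5 cells and -4.18 (SE 0.97, adjusted p = 0.0283) in control cells. Ctsg, the gene of the granule protease cathepsin G, had 1.99 and 6.06 CPM in late sgStat5, against 17.4 and 20.6 CPM in early sgStat5 libraries. It had 5.28 and 12.7 CPM in late control, against 23.0 and 28.9 CPM in early control libraries. The late and early values again did not overlap, and the blocked log2 difference was -2.36 (SE 0.33, adjusted p = 0.00187) in sgStat5 and -1.63 (SE 0.31, adjusted p = 0.0141) in control cells. Without late control replicate 2, the late library with more Mpo RNA, its blocked value in control cells was -8.77, and without late sgStat5 replicate 2 that in sgStat5 cells was -6.35, so the size of these differences rests on single libraries.

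The other 4 granule genes were low. Prtn3 (proteinase 3) reached at most 1.64 CPM and Lyz2 (lysozyme) at most 3.18 CPM, and neither passed in any comparison. Lyz1 and Elane stayed under 1 CPM. Prtn3 and Elane are neighbouring paralogs, as are Lyz1 and Lyz2, so reads shared by the 2 copies may be assigned to the wrong one. Libraries were made without strand, and Mpo shares 512 exon bases with Gm11505 on the other strand, so reads of the 2 genes cannot be told apart there.

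Of the receptors and adaptors, Tyrobp, Fcer1g and Fcgr3 fell in the late gate in both arms with the block. Tyrobp encodes DAP12, a signalling adaptor of myeloid and natural killer receptors (chromosome 7, 30413788 to 30417579), and it had 9.10 and 12.8 CPM in late sgStat5, against 72.6 and 56.8 CPM in early sgStat5 libraries. In control cells it had 2.22 and 12.4 CPM in the late gate, against 52.4 and 53.5 CPM in the early gate. The highest late library was thus below the lowest early one by a wide margin, with blocked log2 differences of -2.62 (SE 0.49, adjusted p = 0.00609) in sgStat5 and -2.96 (SE 0.50, adjusted p = 0.0095) in control cells. Fcer1g, the shared signalling chain of Fc receptors (chromosome 1, 171229572 to 171234349), had 13.3 and 30.3 CPM in late sgStat5, against 61.4 and 77.5 CPM in early sgStat5 libraries. It had 17.8 and 49.9 CPM in late control, against 87.4 and 113 CPM in early control libraries. RNA of this chain therefore remained readily measurable in the late gate, and its blocked log2 difference was -1.77 (SE 0.26, adjusted p = 0.00245) in sgStat5 and -1.69 (SE 0.26, adjusted p = 0.00606) in control cells. Fcgr3, a low-affinity IgG receptor, had 0.972 and 2.08 CPM in late sgStat5, against 4.81 and 8.79 CPM in early sgStat5 libraries. In control cells the values were 0.460 and 2.45 CPM late, against 5.47 and 5.08 CPM early. The blocked log2 difference was -2.18 (SE 0.52, adjusted p = 0.0175) in sgStat5 and -2.13 (SE 0.53, adjusted p = 0.036) in control cells. In control cells the blocked value of Tyrobp was -4.57 without late control replicate 2. That of Fcgr3 was -3.26 without late control replicate 2 and -1.40 without early control replicate 1. The Fcgr3 call in control cells was lost without early control replicate 1 or late control replicate 1. In sgStat5 cells it was lost without early sgStat5 replicate 1 or either late sgStat5 library.

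The C-type lectin receptor Clec12a did not pass in any comparison. It had 49.3 and 51.1 CPM in late sgStat5, 57.7 and 62.4 CPM in late control, 42.7 and 52.6 CPM in early sgStat5 and 53.8 and 63.9 CPM in early control libraries. Late and early values overlapped in sgStat5 and in control cells, with blocked log2 differences of 0.08 (SE 0.10, adjusted p = 0.614) and 0.03 (SE 0.10, adjusted p = 0.869) in that order. Of the growth-factor receptors only Csf1r, the receptor for M-CSF, passed with the block, at low levels. It had 0.398 and 1.22 CPM in late sgStat5, against 3.59 and 3.14 CPM in early sgStat5 libraries. Control libraries had 0.153 and 0.452 CPM in the late gate, against 1.46 and 2.35 CPM in the early gate. The blocked log2 difference was -2.24 (SE 0.65, adjusted p = 0.0367) in sgStat5 and -2.69 (SE 0.69, adjusted p = 0.0392) in control cells. In control cells the Csf1r call was lost when any 1 of the 4 control libraries was left out. In sgStat5 cells it was lost without early sgStat5 replicate 1, either early control library or either late sgStat5 library. Csf1r shares 873 exon bases with Hmgxb3 on the other strand.

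The cytosolic subunits of the phagocyte NADPH oxidase, the enzyme that makes superoxide, were not alike between gates. Ncf1 (p47phox, chromosome 5, 134220259 to 134229625) had 5.04 and 22.4 CPM in late sgStat5, against 39.3 and 70.0 CPM in early sgStat5 libraries. Late control libraries had 2.53 and 14.9 CPM, against 25.4 and 59.0 CPM in early control libraries. The replicate 2 library was the higher one in all 4 groups, and within each guide arm both late values lay below both early ones. Its blocked log2 difference was -2.27 (SE 0.34, adjusted p = 0.00265) in sgStat5 and -2.49 (SE 0.35, adjusted p = 0.00483) in control cells; 408 of its exon bases overlap Gtf2ird2 on the other strand. Ncf4 (p40phox) had 32.3 and 23.3 CPM in late sgStat5, 37.2 and 33.2 CPM in late control, 21.4 and 24.4 CPM in early sgStat5 and 25.7 and 31.2 CPM in early control libraries. Both late control libraries lay above both early control libraries, the sgStat5 libraries overlapped, and neither arm passed, with blocked log2 differences of 0.27 (SE 0.18, adjusted p = 0.309) in sgStat5 and 0.30 (SE 0.18, adjusted p = 0.32) in control cells. Cybb, the membrane subunit of the same oxidase, stayed under 1 CPM, and the lysosomal glycoprotein gene Cd68 ranged from 2.62 to 7.01 CPM and passed in no comparison.

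The signalling, channel and ubiquitin ligase genes were all lower in the late gate in sgStat5 cells, with and without the block. Trpm2, a calcium-permeable channel gated by ADP-ribose (chromosome 10, 77907722 to 77969872), had 1.24 and 1.08 CPM in late sgStat5, against 9.53 and 6.72 CPM in early sgStat5 libraries. In control cells it had 1.03 and 1.23 CPM in the late gate, against 10.3 and 7.97 CPM in the early gate. The 4 late libraries lay close together, far below the early ones. Without the block the log2 difference of Trpm2 was -2.81 (SE 0.33, adjusted p = 0.0437) in sgStat5 and -3.01 (SE 0.33, adjusted p = 0.103) in control cells, and with it -2.98 (SE 0.31, adjusted p = 0.0014) in control cells. Dok3, an adaptor that dampens immune receptor signals, had 3.67 and 4.84 CPM in late sgStat5, against 25.6 and 17.0 CPM in early sgStat5 libraries. It had 3.18 and 5.78 CPM in late control, against 17.1 and 17.5 CPM in early control libraries. The late and early ranges did not overlap. Its log2 difference was -2.32 (SE 0.34, adjusted p = 0.0486) in sgStat5 and -1.94 (SE 0.34, adjusted p = 0.143) in control cells without the block, and -1.95 (SE 0.31, adjusted p = 0.00709) in control cells with it.

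March1 and Card9 also differed between guides, so their values stand with the guide comparison below. March1 had a log2 difference between gates, late minus early, of -2.56 (SE 0.41, adjusted p = 0.0486) in sgStat5 and -2.07 (SE 0.42, adjusted p = 0.186) in control cells without the block, and -2.10 (SE 0.36, adjusted p = 0.0103) in control cells with it. Card9 had -2.18 (SE 0.31, adjusted p = 0.0482) in sgStat5 and -1.03 (SE 0.30, adjusted p = 0.241) in control cells without the block, and -1.03 (SE 0.29, adjusted p = 0.0515) in control cells with it.

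**Figure D2:**
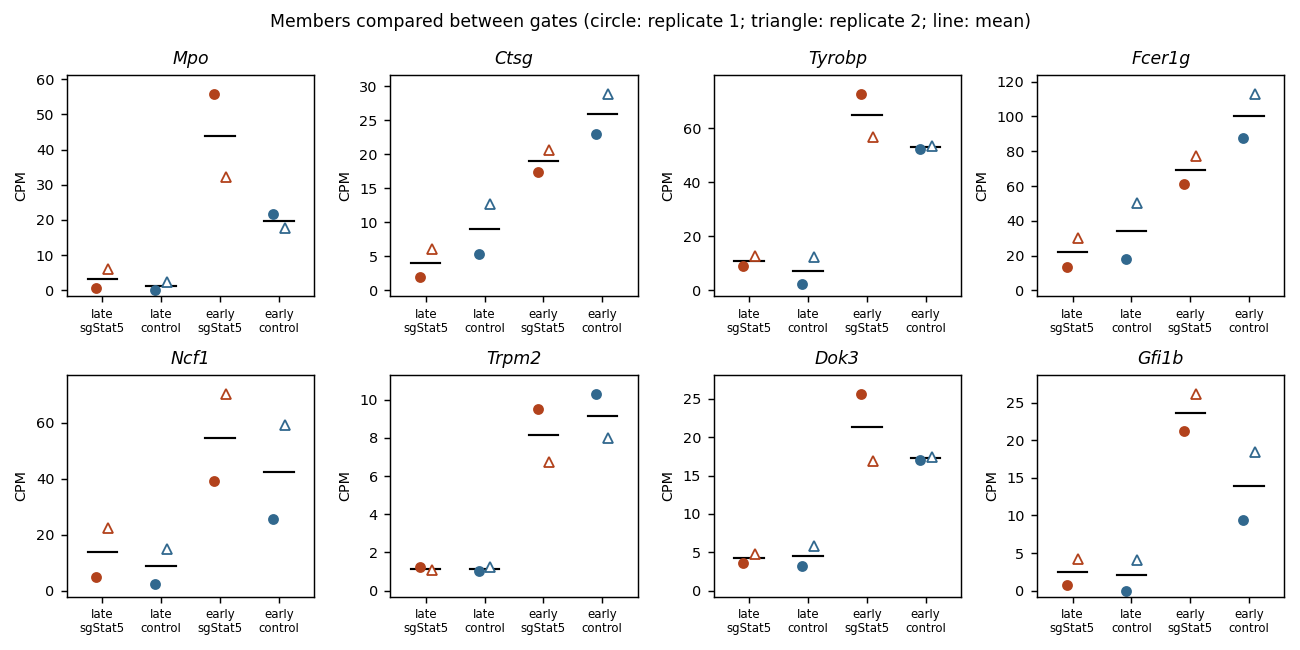
CPM of 8 members in each group (late sgStat5, late control, early sgStat5, early control); circles are replicate 1, triangles replicate 2 and lines the mean of 2. In each guide arm both late libraries lie below both early libraries for all 8 genes, and in the late gate the triangle is above the circle for every gene except Trpm2 in sgStat5 cells.

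Of the 7 tested transcription factors, 1 rose and 2 fell in the late gate in each arm with the block. Gfi1, a repressor used both in granulocyte and in T-cell development (chromosome 5, 107716655 to 107724343), was the one member higher in the late gate in both arms with the block. It had 97.4 and 67.5 CPM in late sgStat5, against 34.9 and 29.4 CPM in early sgStat5 libraries. Control cells had 82.5 and 52.4 CPM in the late gate, against 46.1 and 31.0 CPM in the early gate. Every late library was above every early one, with blocked log2 differences of 1.33 (SE 0.12, adjusted p = 0.000262) in sgStat5 and 0.80 (SE 0.12, adjusted p = 0.00506) in control cells. Its paralog Gfi1b, a repressor of megakaryocyte and red-cell development (chromosome 2, 28609450 to 28621982), had the opposite pattern. It had 0.796 and 4.23 CPM in late sgStat5, against 21.2 and 26.1 CPM in early sgStat5 libraries. In control cells it had 0 and 4.07 CPM late, against 9.41 and 18.4 CPM early. No late value reached an early one, and the blocked log2 difference was -3.61 (SE 0.79, adjusted p = 0.0123) in sgStat5 and -3.12 (SE 0.79, adjusted p = 0.0387) in control cells. In control cells the blocked value of Gfi1b was -10.92 without late control replicate 2, where the one remaining late control library held 0 counts, so that fitted value is no measure of size.

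Cebpb, a C/EBP factor of myeloid genes, had 9.24 and 11.4 CPM in late sgStat5, against 19.6 and 18.8 CPM in early sgStat5 libraries. It had 9.42 and 11.4 CPM in late control, against 17.8 and 21.1 CPM in early control libraries. The late and early values did not overlap in either arm, with blocked log2 differences of -0.90 (SE 0.17, adjusted p = 0.00593) in sgStat5 and -0.90 (SE 0.16, adjusted p = 0.0126) in control cells. The other 4 factors were low. Cebpa, a C/EBP factor needed for granulocytes and monocytes, reached at most 3.97 CPM, and the red-cell, megakaryocyte and mast-cell factors Gata1, Gata2 and Klf1 at most 2.72, 1.74 and 0.796 CPM in that order. Cebpa, Gata1, Gata2 and Klf1 passed in no comparison. Exons of Gfi1, Cebpb and Cebpa overlap A430072P03Rik by 101 bases, Tmem189 by 312 bases and Gm45091 by 51 bases on the other strand.

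Of the mast-cell and basophil products, Cpa3 remained abundant in the late gate. Cpa3, a carboxypeptidase of mast-cell granules that early blood progenitors also express (chromosome 3, 20215616 to 20242181), had 494 and 324 CPM in late sgStat5, against 742 and 353 CPM in early sgStat5 libraries. Late control libraries had 315 and 233 CPM, against 639 and 291 CPM in early control libraries. Replicate 1 was the higher library in all 4 groups, and late and early values overlapped in both arms. Within each replicate number the late library held less Cpa3 RNA than the early one. The ratio was 0.665 and 0.917 in sgStat5 and 0.493 and 0.799 in control cells. The blocked log2 difference was -0.36 (SE 0.15, adjusted p = 0.122) in sgStat5 cells, which did not pass, and -0.67 (SE 0.15, adjusted p = 0.0274) in control cells. Mcpt8, a protease of mouse basophils, had 1.77 and 5.09 CPM in late sgStat5, against 12.8 and 15.1 CPM in early sgStat5 libraries. In control cells it had 1.8 and 9.0 CPM in the late gate, against 20.9 and 24.0 CPM in the early gate. Mcpt8 values of the 2 gates did not overlap, and its blocked log2 difference was -2.17 (SE 0.47, adjusted p = 0.0116) in sgStat5 and -2.30 (SE 0.46, adjusted p = 0.0165) in control cells. Mcpt8 and Ctsg belong to the same protease cluster on chromosome 14. Without late control replicate 1 the blocked value of Cpa3 in control cells was -0.42, and the call was lost. It was also lost without early control replicate 1.

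**Figure D3:**
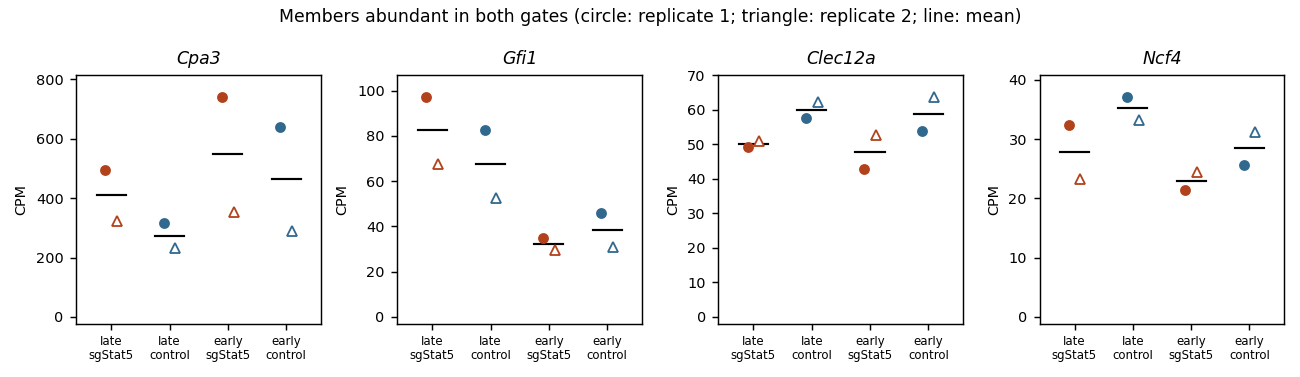
CPM of Cpa3, Gfi1, Clec12a and Ncf4 in each group, drawn as circles for replicate 1, triangles for replicate 2 and lines for the mean. Cpa3 is above 230 CPM in every library, Gfi1 is highest in the late gate, and Clec12a and Ncf4 have overlapping late and early libraries, except Ncf4 in control cells.

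The replicate number mattered for these gate differences. In the late gate 23 of the 31 tested members were higher in replicate 2 than in replicate 1 in sgStat5 cells and likewise 23 in control cells, against 49.4% and 49.9% of all genes. In the early gate the counts were 15 in sgStat5 and 19 in control cells, against 50.8% and 49.9% of all genes. With the block, leaving out early control replicate 1 left 2 of the 15 calls between gates in control cells, and leaving out late control replicate 1 left a count of 3. Ncf1 and Trpm2 were called in control cells whichever of the 8 libraries was left out. In sgStat5 cells the blocked count fell to 8 without late sgStat5 replicate 1 and to 10 without early sgStat5 replicate 1. Ctsg, Fcer1g, Ncf1, Card9, Dok3, Trpm2, March1 and Gfi1 were called there whichever library was left out. Without the block, the 4 calls in sgStat5 cells were lost when any 1 early library or any 1 late sgStat5 library was left out.

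Summed markers of other cells are given beside these differences. The 15 stromal genes of OP9 type summed to 650.4 and 907 CPM in late sgStat5, 610.0 and 952 CPM in late control, 184 and 474 CPM in early sgStat5 and 215 and 539.7 CPM in early control libraries, with Lum at 0 throughout. They were higher in replicate 2 in every group and higher in the late gate at each replicate number, which is the reverse of the members between gates. The 9 B-cell genes summed to 6.93 to 17.9 CPM over the 8 libraries, with Ms4a1 at 0. The 10 natural killer and innate lymphoid genes summed to 1874 and 2196 CPM in late sgStat5, 1051 and 1609 CPM in late control, 1609 and 1759.7 CPM in early sgStat5 and 1436 and 1778 CPM in early control libraries. Most of this sum was Gzma, a granzyme of cytotoxic cells, with 874 to 1970 CPM over the 8 libraries. Of the 10 listed genes, 2 fell between gates with the block in sgStat5 cells (Klrd1 and Zbtb16) and Gzma rose. Among all tested genes 11.5% fell and 11.3% rose there, so these few calls are near the shares of all genes. In control cells 3 fell with the block (Klrd1, Zbtb16 and Il2rb), beside 4.3% of all tested genes lower and 6.64% higher. Klrd1, the receptor chain CD94, had 0 and 0.430 CPM in late sgStat5, against 0.809 and 3.29 CPM in early sgStat5 libraries, and 0.191 and 0.419 CPM in late control, against 1.89 and 9.26 CPM in early control libraries. Its blocked log2 difference was -3.37 (SE 0.73, adjusted p = 0.0118) in sgStat5 and -3.99 (SE 0.70, adjusted p = 0.0108) in control cells. The call in control cells was lost when any 1 of the 4 control libraries was left out, and the value in sgStat5 cells was -7.47 without late sgStat5 replicate 2, with the remaining late library at 0 counts; its call there was lost without early control replicate 2. Zbtb16, the factor PLZF of innate lymphocytes, had a blocked log2 difference of -1.03 (SE 0.28, adjusted p = 0.0276) in sgStat5 and -1.61 (SE 0.28, adjusted p = 0.0112) in control cells. Without late control replicate 1 or early control replicate 1 the Zbtb16 call in control cells was lost, as it was in sgStat5 cells without early sgStat5 replicate 1 or either late sgStat5 library. The Il2rb call was lost without early control replicate 2 (log2 difference -0.50) or either late control library, and the Gzma call without early sgStat5 replicate 2 (0.21), either early control library or either late sgStat5 library. The members Tyrobp, Fcer1g and Fcgr3 are also expressed by natural killer cells and fell in the same 2 comparisons. Ncr1, Klrb1c and Eomes, markers of natural killer cells, were each at most 1.48 CPM. The part of these cells in the members' values was not tested.

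**Figure D4:**
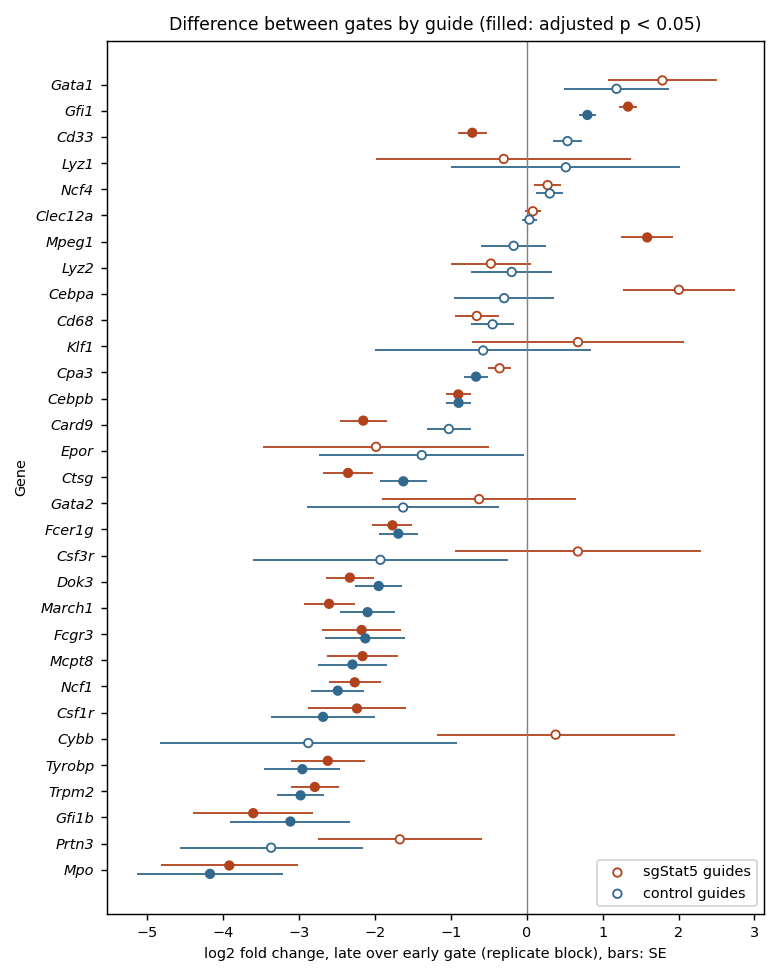
Log2 difference, late minus early gate, of the 31 tested members with the replicate block, in sgStat5 cells (red) and control cells (blue); bars are standard errors and filled points passed an adjusted p of 0.05. Mpo has the lowest values in both arms, Gfi1 is filled on the right in both, and Mpeg1 is filled on the right in sgStat5 cells.

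The second comparison asked which of these genes depended on STAT5 within a gate. In the late gate edgeR called 1 of the 31 members without the block, Mpeg1, which rose, where 1.71% of all genes were called (0.755% higher and 0.951% lower). With the block 2 members rose (Mpeg1 and March1) and 2 fell (Cd33 and Card9), against 8.22% of all genes called (3.72% higher and 4.49% lower). In the early gate edgeR called 0 of 31 without the block, where 0.269% of all genes were called, 2 members had an unadjusted p under 0.05, DESeq2 called 2 and limma on FPKM 0. With the block Mpeg1 and March1 rose there as well, and 2.33% of all genes were called. EdgeR made those early calls only in the blocked fit, which gave too many false calls on simulated data for this comparison. The median log2 difference of the 31 tested members was 0.07 in the late and 0.00 in the early gate, beside -0.02 and 0.00 over all genes. Both sgStat5 libraries lay above both control libraries for 3 members and below for 4 in the late gate, against 18.1% and 20.8% of all genes. Early-gate counts were 6 above and 7 below, against 18.7% and 19.4%. The other 27 tested members passed in neither gate, with or without the block. With the block Bcl11b, Tcf7, Gata3, Ptcra and Rag1 were higher in late sgStat5 than in late control cells, and Il2ra and Thy1 were lower. Only the Il2ra call was also made without the block, and only it held in the blocked fit whichever library was left out. Bcl11b had 797 and 415 CPM in late sgStat5, against 542 and 219 CPM in late control libraries. The late cells of the 2 guides thus differed in T-lineage RNA, whose part in the members' values was not tested.

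Mpeg1 encodes perforin-2, a pore-forming protein of macrophages (chromosome 19, 12460779 to 12465285). It had 13.0 and 19.0 CPM in late sgStat5, against 0.651 and 1.0 CPM in late control libraries. Early sgStat5 libraries had 4.22 and 6.5 CPM, against 0.354 and 1.61 CPM in early control libraries. All 4 sgStat5 values lay above all 4 control values, and the late sgStat5 libraries were the highest. The log2 difference in the late gate was 4.26 (SE 0.69, adjusted p = 0.0355) without the block and 4.29 (SE 0.40, adjusted p = 0.000305) with it. The early difference was 2.43 (SE 0.65, adjusted p = 0.357) without the block and 2.53 (SE 0.39, adjusted p = 0.0113) with it. With the block the late call was made whichever of the 8 libraries was left out, and without the block it was lost when either early sgStat5, late sgStat5 or late control library was left out. The early blocked call was lost without early control replicate 1, with an adjusted p of 0.0542. Between gates Mpeg1 rose in late against early sgStat5 cells with the block, by 1.59 (SE 0.34, adjusted p = 0.0112), and had -0.17 (SE 0.43, adjusted p = 0.839) in control cells. That rise was not called without the block. The blocked call was lost without early sgStat5 replicate 2 or late sgStat5 replicate 1.

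March1 (listed as Marchf1 in RefSeq) encodes a ubiquitin ligase that removes MHC class II and CD86 from the cell surface (chromosome 8, 66386301 to 66471637). It had 2.48 and 5.09 CPM in late sgStat5, against 0.919 and 1.68 CPM in late control libraries. Early sgStat5 libraries had 24.2 and 20.5 CPM, against 5.67 and 5.34 CPM in early control libraries. Within each gate both sgStat5 libraries lay above both control libraries, and the early sgStat5 libraries were the highest of the 4 groups. The log2 difference in the late gate was 1.54 (SE 0.42, adjusted p = 0.177) without the block and 1.53 (SE 0.37, adjusted p = 0.0364) with it. For the early gate the difference was 2.02 (SE 0.40, adjusted p = 0.171) without the block and 2.03 (SE 0.32, adjusted p = 0.0134) with it. The blocked late call was lost without late sgStat5 replicate 2 (log2 difference 0.95), late control replicate 1 or late control replicate 2. The blocked early call was lost without early sgStat5 replicate 1 or without either early control library. March1 shares 546 exon bases with Gm15354 on the other strand.

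Cd33, a sialic-acid-binding receptor of myeloid cells (chromosome 7, 43527456 to 43533171), had 10.7 and 10.6 CPM in late sgStat5, against 21.9 and 16.7 CPM in late control libraries. It had 22.1 and 13.9 CPM in early sgStat5, against 14.2 and 12.2 CPM in early control libraries. The late libraries of the 2 guides did not overlap and the early ones did. The log2 difference in the late gate was -0.86 (SE 0.25, adjusted p = 0.223) without the block and -0.84 (SE 0.19, adjusted p = 0.0277) with it, and the blocked call was lost without late sgStat5 replicate 1, either late control library or early control replicate 1. Between gates Cd33 fell in late against early sgStat5 cells with the block, with a log2 difference of -0.72 (SE 0.19, adjusted p = 0.0257), and had 0.54 (SE 0.19, adjusted p = 0.0982) in control cells.

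Card9, an adaptor downstream of C-type lectin receptors (chromosome 2, 26352312 to 26359547), had 1.41 and 1.61 CPM in late sgStat5, against 3.56 and 3.45 CPM in late control libraries. It had 8.13 and 5.61 CPM in early sgStat5, against 7.60 and 6.75 CPM in early control libraries. The guides were apart in the late gate and overlapped in the early gate. The log2 difference in the late gate was -1.21 (SE 0.31, adjusted p = 0.142) without the block and -1.2 (SE 0.31, adjusted p = 0.0464) with it. The blocked call was lost without either early control library or any 1 of the 4 late libraries. Card9 shares 87 exon bases with Gm13562 on the other strand.

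**Figure D5:**
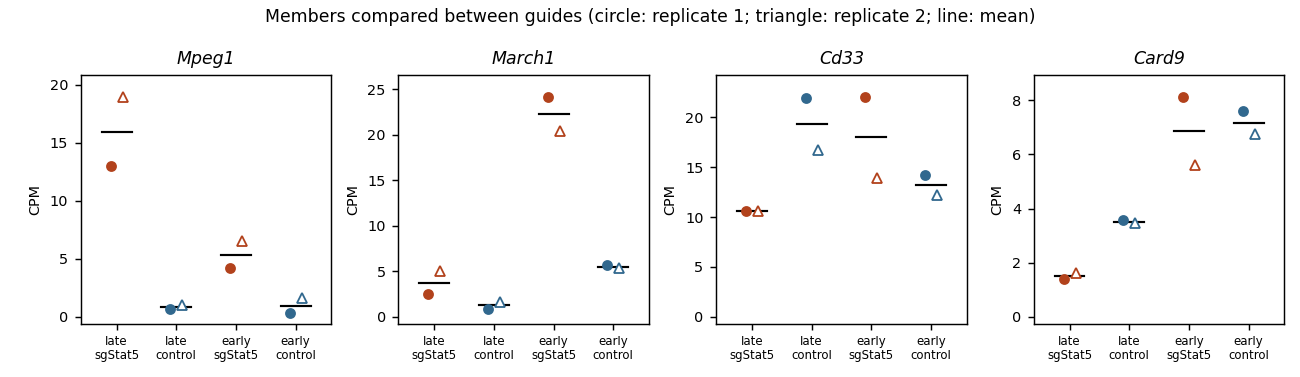
CPM of Mpeg1, March1, Cd33 and Card9 in each group; circles are replicate 1, triangles replicate 2 and lines the mean. Mpeg1 and March1 are higher in sgStat5 than in control libraries in each gate, and Cd33 and Card9 are lower in late sgStat5 than in late control libraries.

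The abundant members Cpa3, Mpo, Tyrobp and Fcer1g did not pass between guides. Cpa3 averaged 409 ± 119.9 CPM in late sgStat5 and 274 ± 58.7 CPM in late control libraries (SD, n = 2 each), with a blocked log2 difference of 0.56 (SE 0.15, adjusted p = 0.0599). Both late sgStat5 libraries were above both late control libraries for Cpa3. Mpo averaged 43.9 ± 16.7 CPM in early sgStat5 and 19.8 ± 2.77 CPM in early control libraries (SD, n = 2 each). Both early sgStat5 libraries were above both early control libraries for Mpo, and its log2 difference was 1.15 (SE 1.09, adjusted p = 0.992) without the block and 1.2 (SE 0.76, adjusted p = 0.576) with it. For Tyrobp the log2 difference was 0.58 (SE 0.63, adjusted p = 0.798) in the late and 0.29 (SE 0.60, adjusted p = 1) in the early gate. For Fcer1g it was -0.64 (SE 0.52, adjusted p = 0.711) in the late and -0.53 (SE 0.51, adjusted p = 0.996) in the early gate. Within each replicate number Fcer1g was lower with sgStat5, at 0.743 and 0.607 times control in the late and 0.703 and 0.687 times in the early gate. Tyrobp was higher with sgStat5 in each such pair, at 4.10 and 1.03 times control in the late and 1.39 and 1.06 times in the early gate. The differences and standard errors given for these 2 genes are without the block and do not use this pairing. These values do not show that the genes were alike with both guides.

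Whether the effect of the Stat5 guides depended on the gate was tested directly, as the late difference minus the early one. EdgeR called 0 of the 31 members with and without the block, as it called 0 of all 13775 genes (0%), and DESeq2 and limma on FPKM called 0 members. Cd33 and Card9 were the 2 members with an unadjusted p under 0.05, with log2 values of -1.30 (SE 0.36, adjusted p = 1) and -1.15 (SE 0.42, adjusted p = 1) in that order. For Mpeg1 the value was 1.83 (SE 0.89, adjusted p = 1) and for March1 -0.48 (SE 0.57, adjusted p = 1).

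Other genes of the same lineages, taken from lists, were counted in the same tests. Of 10 tested megakaryocyte-erythroid genes, 7 fell and 0 rose in late against early sgStat5 cells with the block, and 6 fell and 0 rose in control cells; without it edgeR called 0 in either arm, with 7 at an unadjusted p under 0.05 in each. Of all genes 11.5% fell and 11.3% rose in sgStat5 cells with the block, and 4.3% fell and 6.64% rose in control cells, and the list counts here are to be read beside these shares. Among them was Itga2b, the integrin subunit CD41 of megakaryocytes and early progenitors, with 14.9 and 60.3 CPM in late sgStat5, against 235 and 323 CPM in early sgStat5 libraries. It had 4.94 and 66.4 CPM in late control, against 191 and 271 CPM in early control libraries. Its early values were far above its late ones, and its blocked log2 difference was -3.22 (SE 0.62, adjusted p = 0.00746) in sgStat5 and -3.20 (SE 0.63, adjusted p = 0.0162) in control cells. The control value was -5.09 without late control replicate 2, and its call was lost without early control replicate 1 or late control replicate 1, as was the sgStat5 call without late sgStat5 replicate 1. Of 29 tested granulocyte-monocyte genes, 6 fell and 4 rose in late sgStat5 cells with the block, and 4 fell and 2 rose in late control cells, so the rising share was near that of all genes in both arms. Of 13 tested dendritic-cell genes, 1 fell and 6 rose in late sgStat5 cells with the block, and 2 fell and 3 rose in late control cells. Itgax fell in both arms and H2-Eb1 fell in control cells. Irf7, Spib and Ly6d rose in both arms, and Tcf4, H2-Aa and Cd74 rose in sgStat5 cells. Without the block Itgax fell and Ly6d rose in sgStat5 cells, and no gene of this list passed in control cells. Both tested mast-cell genes that passed between gates, Kit and Slc18a2, fell in both arms with the block, of 7 tested.

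Between guides in the late gate, 8 of 13 tested dendritic-cell genes rose and 0 fell with the block, and without the block 1 rose, beside 3.72% of all genes higher and 4.49% lower with the block. The 2 with the largest difference were the MHC class II genes H2-Eb1 and H2-Aa, which present antigen to T cells. H2-Eb1 had 14.1 and 26.2 CPM in late sgStat5, against 0.115 and 1.26 CPM in late control libraries, and a blocked log2 difference of 5.02 (SE 0.51, adjusted p = 0.000434). H2-Aa had 15.9 and 24.1 CPM in late sgStat5, against 0.230 and 1.97 CPM in late control libraries, and 4.61 (SE 0.52, adjusted p = 0.000807). Both late sgStat5 libraries were thus above both late control libraries for each gene. Most of the 8 genes that rose belong to MHC class II presentation, so the count does not stand for the list as a whole. Itgax averaged 3.24 CPM in late sgStat5 and 2.70 CPM in late control libraries, Flt3 averaged 1.08 and 1.56 CPM, and neither passed between guides. Clec9a, Xcr1 and Zbtb46 were at most 0.369 CPM in any library. Of 29 granulocyte-monocyte genes, 3 rose and 2 fell in late sgStat5 against late control cells with the block, and without it Irf8 rose and Csf2rb fell; the 2 that fell are close to the share of all genes. Irf8, a factor of monocytes and dendritic cells, had 21.3 and 24.3 CPM in late sgStat5, against 8.85 and 7.32 CPM in late control libraries, and 1.5 (SE 0.24, adjusted p = 0.0329) without the block. Csf2rb, the shared receptor chain for GM-CSF, IL-3 and IL-5, had 2.39 and 2.94 CPM in late sgStat5, against 7.96 and 11.6 CPM in late control libraries, and -1.87 (SE 0.31, adjusted p = 0.0371) without the block. Irf8 and Csf2rb each had separate ranges with the 2 guides, and both were called with the block whichever library was left out; without the block the Csf2rb call was lost whichever was left out, and the Irf8 call without any 1 late or early control library. Of the 10 tested megakaryocyte-erythroid genes only Tfrc, the transferrin receptor, passed in the late gate. It had 465 and 504 CPM in late sgStat5, against 722 and 769.5 CPM in late control libraries, and fell with a log2 difference of -0.62 (SE 0.08, adjusted p = 0.0153) without the block and -0.62 (SE 0.06, adjusted p = 0.000494) with it. The blocked call was made whichever library was left out, and the call without the block was lost for each library left out other than early sgStat5 replicate 1. In the early gate Tfrc had -0.39 (SE 0.06, adjusted p = 0.0165) with the block and -0.39 (SE 0.08, adjusted p = 0.182) without it, and the blocked call was lost without either early sgStat5 library or early control replicate 1. In the early gate 0 granulocyte-monocyte, 0 mast-cell, 1 dendritic-cell (Irf7, higher) and 1 megakaryocyte-erythroid gene (Tfrc) passed with the block, and none without it, where 4, 0, 3 and 1 had an unadjusted p under 0.05.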

How the data were processed

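Bulk RNA sequencing of 8 libraries was deposited as 2 tables. Per the submitters' processing notes the tools were bcl2fastq 1.8.4, STAR 2.4.0 and RSEM 1.2.25, with GRCm38 (mm10). Per the file headers, the deposited counts are raw tags over the exons of 1 transcript per gene from HOMER's analyzeRepeats, and the deposited FPKM values came from the same program, scaled to the tags of each library. For Cd33, Siglech, Csf3r, Ncf1, Cebpa, Gfi1, Gfi1b and Ms4a2 the FPKM refer to another transcript than the counts. The library kit keeps no strand, so overlapping genes on the other strand can add reads. All columns were used (0 left out).

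The test was edgeR 4.0.16 under R 4.3.3. Its filterByExpr (minimum count 10) kept 13775 genes, libraries were scaled by TMM, and a two-sided quasi-likelihood F-test was fitted to all 8 libraries with 4 group means. Benjamini-Hochberg adjustment ran over all tested genes in each of 5 comparisons, with a threshold of 0.05. SE was derived from F, as the size of the log2 fold change over the root of F. Scripts were tested on 1 simulated set per comparison, where the share of false calls stayed under the threshold without the block. With the block it was 4.61 to 14.6%, and 1 set cannot rank the comparisons. Alternatives were the replicate block, DESeq2 1.42.0, RLE scaling, 2 other filters, limma 3.58.1 on log2(FPKM + 0.1) and log2(FPKM + 1), and leaving out each library.

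Replicate numbers were judged to pair the libraries: deviations from group means correlated between groups with 6 coefficients from 0.490 to 0.675, and the levels of Xist and of 4 Y-linked genes separate number 1 from number 2 in all groups. Residual degrees of freedom were 4 without and 3 with the block. The members and gene lists were chosen with earlier results of these data known. Members that passed in any comparison, averaged at least 20 CPM or reached 10 CPM in a library are given with all values. Of each other list, at most 2 genes that passed are named per comparison, with Kit and Slc18a2 as the only 2 of their list. Beyond that limit, T-lineage, natural killer and, between gates, dendritic-cell genes were named after their values were seen. Counting error alone sets a floor of 3 counts per library.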

Additional observations from a re-analysis of the deposited data

How the results depend on the processing

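Over 45 single-gene values and 1026 alternative fits of them, 730 kept their direction and side of the threshold, 262 passed only in the alternative, 33 lost the call and 1 changed sign. That 1 was Mpo in early sgStat5 against early control cells, at -0.30 with the replicate block and without early sgStat5 replicate 1. The replicate block moved the counts most. For late against early control cells it called 15 members and 1507 genes (0 and 2 without it), for late against early sgStat5 cells 17 and 3144 (4 and 134), for sgStat5 against control 4 and 1132 in the late gate (1 and 235) and 2 and 321 in the early gate (0 and 37). DESeq2 gave 6 members and 578 genes, 10 and 1684, 2 and 629, and 2 and 247 for the same 4 comparisons, and 0 members and 2 genes for the difference between effects. With no filter beyond 1 count the member counts were 3, 8, 1 and 1, with 83, 760 and 114 genes for late against early control cells, late against early sgStat5 cells and sgStat5 against control in the early gate. The stricter filter gave 231 genes for late against early sgStat5 cells, and limma on log2(FPKM + 0.1) 2 members there. The cause of these moves was not tested.

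Leaving out each library in turn gave 0 to 1 members and 0 to 32 genes for late against early control cells without the block, and 2 to 16 and 161 to 1817 with it. For late against early sgStat5 cells the ranges were 0 to 6 and 0 to 529, and 8 to 18 and 886 to 3060 with the block. For sgStat5 against control in the late gate they were 0 to 1 and 63 to 151, and 1 to 6 and 401 to 1242 with the block. In the early gate they were 0 and 0 to 30, and 0 to 2 and 104 to 347 with the block. For the difference between effects they were 0 and 0, and 0 members and 0 to 6 genes with the block. Blocked gene counts that moved by over 1.5 times inside these ranges were 169 for the control gate difference, 1119 and 2065 for the sgStat5 one, 524, 605 and 674 for the late and 170 and 196 for the early guide difference. Where a group kept 1 library, that library was assumed to vary like the other groups. The blocked counts printed in the text are the ones that changed a call; the difference between effects had no call changed by the block. Groups of 2 libraries and members of few counts limit what could be detected.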
